A study of Homo sapiens with 8 samples.

Results

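The transcripts described here are those encoded by human mitochondrial DNA, taken as every gene whose symbol starts with MT- in the deposited count tables. These are read apart by class and by the DNA strand from which the gene is transcribed. They number 32 of the 17849 genes in any table, and 30 of them have counts in all 8 libraries, as do 16608 genes in all. The 30 are 2 ribosomal RNA (rRNA) genes, 12 heavy-strand mRNA genes, 1 light-strand mRNA gene (MT-ND6), 9 heavy-strand transfer RNA (tRNA) genes and 6 light-strand tRNA genes. MT-TI (1 to 13 reads in a library) and MT-TW (0 to 18) have no counts for the Doxo libraries in these tables and enter no comparison, and 5 further tRNA genes (MT-TV, MT-TA, MT-TN, MT-TD and MT-TK) were not analysed here. The cells were SupB15, an established human leukemia line (Philadelphia chromosome positive, of the pre-B type), and total RNA was sequenced in 2 libraries for each of 4 treatments. The group 1035+Doxo received 1035, named in the title of the series as a histone deacetylase inhibitor, at 2 µM for 36 h and then doxorubicin, an anthracycline that blocks topoisomerase II, at 0.1 µM for 10 h. The group 1035 received 2 µM for 46 h, the group Doxo received 0.1 µM doxorubicin for 10 h, and the controls received DMSO for 46 h. Not given in the sources used here is whether 1035 was still present while doxorubicin acted, and all cells were of this single line.

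Mitochondrial DNA is a small circle transcribed from both strands by its own RNA polymerase, POLRMT, with the factors TFAM and TFB2M. Each strand gives a long polycistronic RNA, from which the tRNAs are cut out and the rRNAs and mRNAs lying between them are released. The heavy-strand RNA carries both rRNAs, most tRNAs and all mRNAs but one. The light-strand RNA carries MT-ND6, a subunit of respiratory complex I, and a scattered set of tRNAs, and most of its length is noncoding RNA that is normally degraded. The mRNAs encode subunits of complex I (the MT-ND genes), complex III (MT-CYB), complex IV (MT-CO1, MT-CO2 and MT-CO3) and ATP synthase (MT-ATP6 and MT-ATP8).

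The tRNA sequences below are from GENCODE 29 (GRCh38), 5′ to 3′ as in the RNA of each gene. MT-TQ (light strand) and MT-TI (heavy strand) are shown because they lie on opposite strands and their 3′ ends share 3 bases, given in capitals, so that without strand information a read there belongs to either.
MT-TQ: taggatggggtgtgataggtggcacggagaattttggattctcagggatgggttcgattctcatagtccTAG
MT-TI: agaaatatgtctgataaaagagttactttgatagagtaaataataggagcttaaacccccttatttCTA
MT-TE and MT-TP lie upstream of MT-ND6 on the light-strand RNA, and they are shown because they and MT-ND6 differed most between libraries among the light-strand genes, per kilobase.
MT-TE: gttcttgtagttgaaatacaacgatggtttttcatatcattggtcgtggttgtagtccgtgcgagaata
MT-TP: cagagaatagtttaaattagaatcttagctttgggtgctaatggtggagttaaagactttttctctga
MT-TL1 follows the rRNA genes on the heavy strand, and the capitals mark the sequence TGGCAGAGCCCGG, known as the mitochondrial terminator to which MTERF1 binds.
MT-TL1: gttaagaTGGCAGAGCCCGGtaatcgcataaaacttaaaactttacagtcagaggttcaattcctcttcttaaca
Searched on both strands, the 13 bases of that terminator occur in 1 of the 37 mitochondrial genes of GENCODE 29 (2.7%). That gene is MT-TL1, from which the bases were taken, so its match was certain. The RNAs of the strands differ in composition, with bases counted on the RNA and not on the strand it is copied from. MT-ND6 is 35.6% G and 7.05% C, against 12% G and 33.1% C in the 12 heavy-strand mRNAs together, and the 8 annotated light-strand tRNAs are 28.6% G and 14.3% C, against 14.6% G and 20.5% C in the 14 heavy-strand tRNAs.

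The counted reads on genes shared by all libraries numbered 11760542 to 18144670 per library, and the 8 markers of B-lineage cells used for this check were all detected. Their summed level was 2039 to 2087 CPM, which are counts brought to a common library total, in the 4 libraries given 1035 and 3018 to 3265 CPM in the other 4. In 1035 against DMSO the test used below (edgeR, FDR 0.05) called 6 lower and 2 higher, while 24.8% of all genes were lower and 24.2% higher. Of 12 markers of T, myeloid, erythroid and fibroblast cells, 3 were in the tables (LYZ, COL1A1 and CSF1R), with a summed level of 20.1 to 23.7 CPM in the 4 libraries given 1035 and 14.7 to 17 CPM in the other 4. COL1A1 had 25 and 33 reads in 1035 and 2 and 5 in DMSO, and CSF1R had 215 and 210 against 167 and 174. LYZ went the other way, with 39 and 34 reads in 1035 and 62 and 65 in DMSO. The markers of both kinds thus moved with 1035, in both directions, and their part in the results on 1035 was not tested. CPM here are scaled by the trimmed mean of M values (TMM). Per the labels, the library kit keeps strand and includes Ribo-Zero Gold, a reagent that removes cytoplasmic and mitochondrial rRNA, so the rRNA counts are what that step left. The strand setting of the read counter is not stated, so reads of a gene and of RNA from the opposite strand cannot be told apart. Reads of 50 bases on tRNA genes of 59 to 75 bases do not tell a tRNA from its uncut precursor. All values are shares of a library, so more mitochondrial RNA per cell and less of other RNA cannot be told apart.

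The 30 genes took 0.204% and 0.185% of the reads in 1035+Doxo libraries, 0.207% and 0.258% in 1035 libraries, 0.163% and 0.258% in Doxo libraries, and 0.160% and 0.145% in DMSO libraries. The group means were 0.194% ± 0.0137, 0.232% ± 0.0356, 0.211% ± 0.0672 and 0.152% ± 0.0106 in that order (SD, n = 2 each). The exact 95% binomial interval of library 2 of Doxo, which covers counting error only, was 0.255% to 0.261%. All 6 libraries of the treated groups lay above both DMSO libraries, with library 1 of Doxo just above them, and the 2 Doxo libraries lay far apart from each other. Most of these reads were from few genes. MT-CO1 and MT-CO3 together made up 54.3% to 67.7% of the heavy-strand mRNA reads.

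Per kilobase of gene, MT-CO3 stood highest in all 4 groups, with 900.2 ± 41.7 CPM per kilobase in 1035+Doxo, 966 ± 85.8 in 1035, 992 ± 230 in Doxo and 823 ± 49.6 in DMSO (SD, n = 2 each). MT-CO1 followed at a mean of 267 CPM per kilobase over the 8 libraries, then MT-CO2 at 192, MT-ND6 at 103, MT-ND4 at 94.7 and MT-ND4L at 93.2. In every library MT-CO3 stood above MT-CO1 and MT-CO1 above MT-CO2. From MT-CO2 down, the ranges of neighbours in this order overlapped, and the place of MT-ND6 rests on 2 libraries. It had 358.5 CPM per kilobase in library 2 of 1035 and 164 in library 2 of Doxo, against 35.9 to 57.4 in the other 6. The next mRNAs were MT-ATP6 (74.5), MT-ND3 (71.5), MT-ND5 (64.5), MT-CYB (63.0), MT-ATP8 (47.4), MT-ND1 (40.6) and MT-ND2 (39.3), all in mean CPM per kilobase. After depletion the rRNAs MT-RNR2 and MT-RNR1 stood at 59.6 and 17.1. The level of MT-ATP8 is uncertain because 46 of its bases are shared with MT-ATP6, as are 7 bases of MT-ND4L and MT-ND4.

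**Figure D1:**
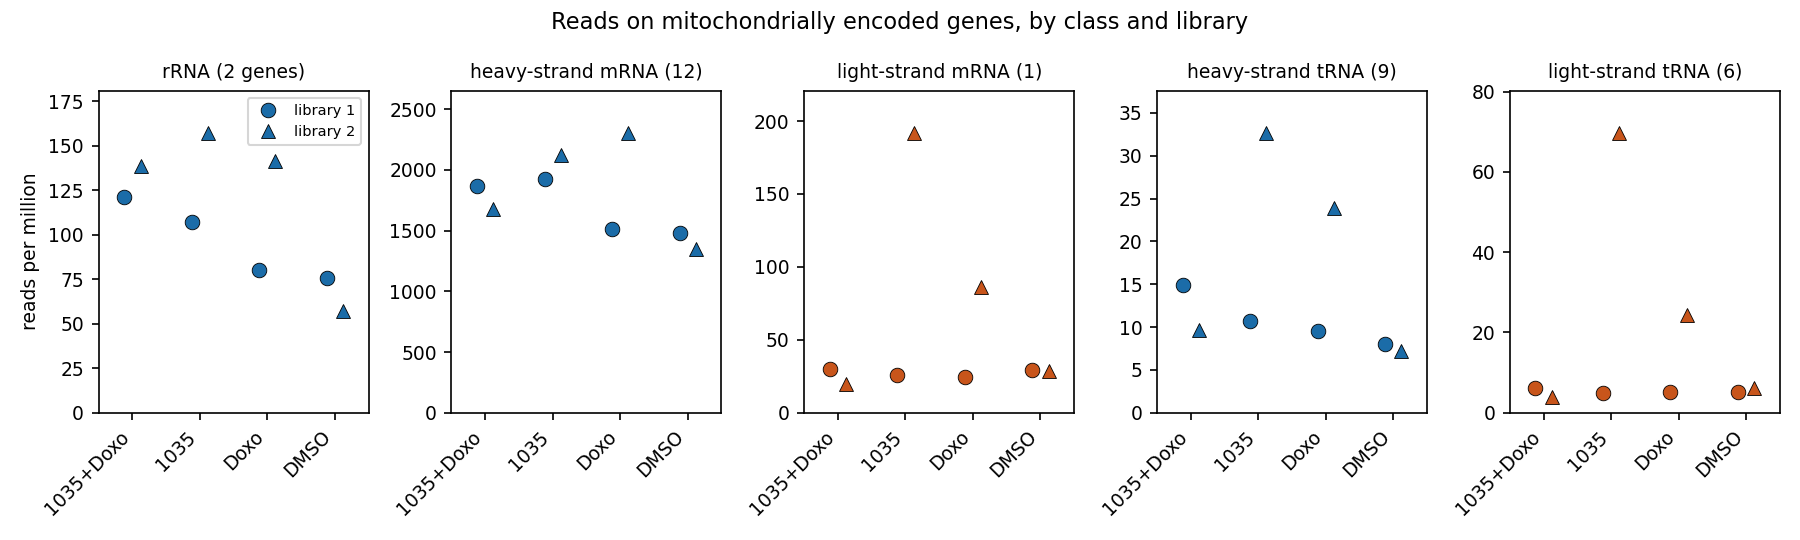
Reads per 1000000 counted reads (vertical axis, from 0) on each class of mitochondrially encoded gene, with 1 point per library and the treatments along the horizontal axis. Blue marks the rRNA and heavy-strand classes and orange the light-strand classes. MT-ND6 (light-strand mRNA) and the light-strand tRNAs stand out in library 2 of 1035, at 192 and 69.8 reads per 1000000, and less so in library 2 of Doxo, at 86.1 and 24.4.

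Library 2 of 1035 and library 2 of Doxo stood apart from the other 6, and in 1035 this was clearest on the light strand. The median log2 difference between libraries was 3.14 for light-strand and 1.69 for heavy-strand tRNAs in 1035. In Doxo these medians were 2.03 and 1.38, and the ranges overlapped widely (0.36 to 4.57 and 0.26 to 3.7). MT-ND6 had 391 and 228 reads in 1035+Doxo, 355 and 2316 in 1035, 440 and 1067 in Doxo, and 473 and 447 in DMSO. MT-TE had 18 and 10 reads in 1035+Doxo, 19 and 274 in 1035, 29 and 124 in Doxo, and 24 and 29 in DMSO. MT-TP had 29 and 10 reads in 1035+Doxo, 18 and 339 in 1035, 32 and 102 in Doxo, and 22 and 35 in DMSO. For each of these genes the second libraries of 1035 and Doxo held the most reads. After TMM scaling, library 2 of 1035 exceeded library 1 by 7.37 times for MT-ND6 (exact 95% counting interval 6.59 to 8.26), 16.3 times for MT-TE (10.2 to 27.5) and 21.3 times for MT-TP (13.3 to 36.3). In Doxo the same ratios were 3.5 (3.13 to 3.92), 6.17 (4.09 to 9.59) and 4.60 (3.07 to 7.07). The heavy-strand tRNAs MT-TL1 and MT-TH had larger ratios in Doxo, at 16.8 (5.31 to 85.6) and 9.28 (4.15 to 24.4). The light-strand tRNA MT-TY had 1.27 (0.592 to 2.71). In 1035+Doxo and DMSO the ratio for MT-ND6 was 0.634 and 0.981.

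The light-strand tRNAs beyond MT-ND6 differed less per kilobase. In library 2 of 1035, MT-TP, MT-ND6 and MT-TE had 386, 309.8 and 303 CPM per kilobase more than in library 1. MT-TS1, MT-TY and MT-TC, further along the light-strand RNA, had 41.3, 36.3 and 31.8 more, and MT-TQ, further still, had 125 more, with 112 reads in library 2 and 1 in library 1. The heavy-strand mRNAs had a median of 30.0 more (-121 to 57.5), and the heavy-strand tRNAs also a median of 30.0 more, with 74.1 for MT-TL1. MT-TL1, the gene with the terminator sequence shown above, had 71 reads in library 2 of 1035 and 3 in library 1, 35 and 3 in those of Doxo, 1 and 13 in those of 1035+Doxo, and none in either DMSO library, where a count of 0 allows up to 3 reads. In Doxo the largest differences were MT-TE (122), MT-ND6 (117) and MT-TP (94.8) on the light strand, while MT-CO3 (325) and MT-CO1 (107) were also higher in library 2. In 1035 those heavy-strand mRNAs were lower in library 2, at 0.882 times library 1 for MT-CO3 and 0.909 times for MT-CO1. The most abundant heavy-strand mRNAs thus went in opposite directions in the 2 libraries that stood apart.

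**Figure D2:**
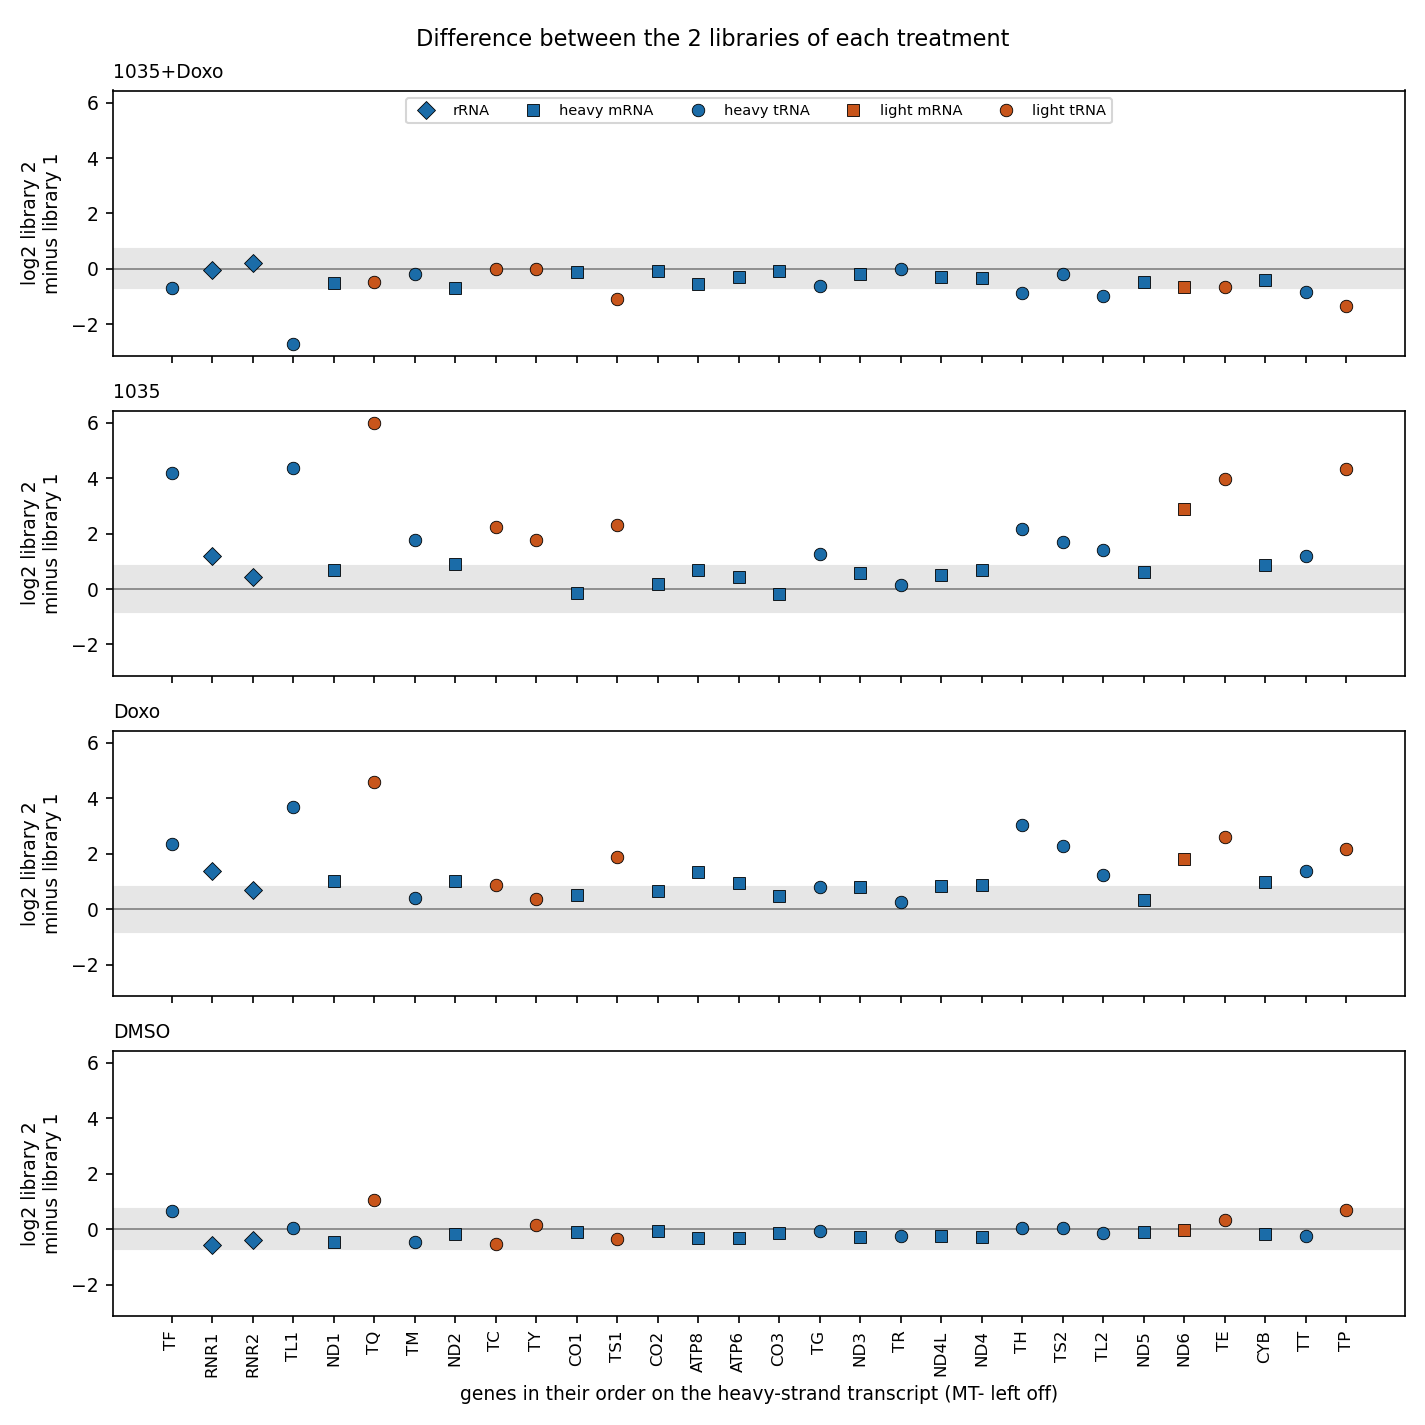
The log2 difference in CPM between library 2 and library 1 of each treatment (vertical axis, prior count of 1), with the genes along the horizontal axis in their order on the heavy-strand RNA. The grey band holds 95% of all 16320 genes tested, squares are mRNAs, circles tRNAs and diamonds rRNAs. In 1035 the light-strand genes (orange) lie between 1.76 and 6.0 and the heavy-strand mRNAs (blue squares) between -0.18 and 0.89.

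Against the same difference over all 16320 genes, the members' differences were wide in these groups. In 1035, 18 of 30 exceeded in size the 95th percentile of all genes, and in Doxo 20 of 30, each time with library 2 higher, against 6 of 30 in 1035+Doxo, all with library 2 lower, and 1 of 30 in DMSO. The biological coefficient of variation that edgeR fitted over the 4 groups was 72.4% for MT-ND6, 93.8% for MT-TE, 97.7% for MT-TP, 13.2% for MT-CO1 and 12.6% for MT-CO3, while the trend for genes of their abundance was 4.94%, 7.59%, 7.24%, 4.16% and 4.20%.

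Some other measures moved with these 2 libraries. MTND6P4, a nuclear copy of MT-ND6, had 36 and 19 reads in 1035+Doxo and 30 and 264 in 1035. It had 37 and 105 in Doxo and 42 and 31 in DMSO. Whether reads of MT-ND6 itself were counted on MTND6P4 was not tested. Other nuclear copies did not rise in this way in library 2 of 1035, in raw reads not scaled to library depth. These were MTND4P16 (17 and 15 in libraries 1 and 2), MTND4P12 (26 and 24) and MTND5P5 (18 and 8). In Doxo they had 18 and 27, 25 and 26, and 8 and 11 reads, each time more in library 2. Library 2 of Doxo was the shallower one, with 12398192 counted reads against 18144670 in library 1. In 1035 library 2 held 12055472 counted reads against 13725592, so slightly fewer raw reads there need not be a lower level. A set of 6 genes of other tissues (TG, VWF, HYDIN, MUC16, RYR1 and GRIN2B), chosen after their values were seen, summed to 15.2 CPM in library 2 of 1035 and 9.05 in library 2 of Doxo, against 0.112 to 1.22 CPM in the other 6. The nuclear long noncoding RNA MALAT1 did not stand out there, at 0.544% of reads in library 2 of 1035 and 0.414% in library 2 of Doxo beside 0.665% and 0.341% in the first libraries. Small nucleolar and Cajal body RNAs held 0.248% to 0.281% of reads in all 8 libraries. The part of these measures in the differences between libraries was not tested. Results that rest on the 2 libraries are therefore given with and without them.

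Relative to the heavy strand, MT-ND6 was lower in 1035+Doxo than in DMSO, and its place in 1035 depended on the library. It had 1.62 and 1.16 reads per 100 reads on the 12 heavy-strand mRNAs in 1035+Doxo, 1.34 and 9.04 in 1035, 1.60 and 3.73 in Doxo, and 1.97 and 2.13 in DMSO. The 1035+Doxo libraries and the first libraries of 1035 and Doxo all lay below both DMSO libraries, and the second libraries of 1035 and Doxo lay above them. The group means were 1.39 ± 0.326, 5.19 ± 5.45, 2.67 ± 1.51 and 2.05 ± 0.112 in the same order (SD, n = 2 each), and no test was made on this ratio, since the smallest exact permutation p that 2 against 2 libraries allow is 0.333. Light-strand tRNA reads per heavy-strand tRNA read had the same order of libraries at the top, with 0.415 and 0.395 in 1035+Doxo, 0.456 and 2.13 in 1035, 0.546 and 1.02 in Doxo, and 0.626 and 0.841 in DMSO. Against its neighbour MT-ND5 alone, MT-ND6 had 27.2 and 23.7 reads per 100 in 1035+Doxo, 22.1 and 106.6 in 1035, 22.5 and 62.0 in Doxo, and 28.5 and 29.9 in DMSO. Against that denominator the first libraries of 1035 and Doxo and both of 1035+Doxo again lay below DMSO.

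**Figure D3:**
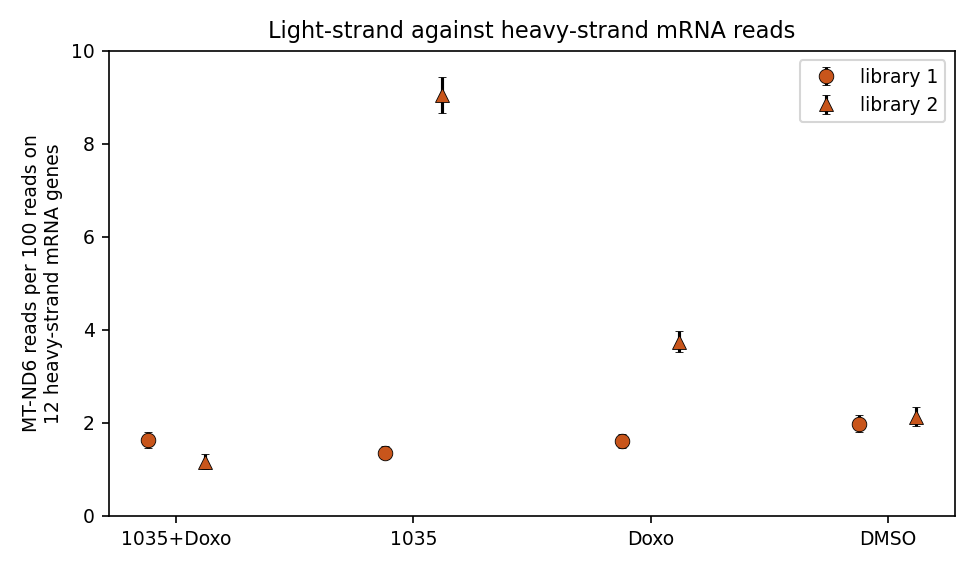
MT-ND6 reads per 100 reads on the 12 heavy-strand mRNA genes (vertical axis) in each library, by treatment, with exact 95% binomial intervals, which cover counting error only. Library 2 of 1035 stands at 9.04 and library 2 of Doxo at 3.73, and the other 6 libraries lie between 1.16 and 2.13.

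The design asks first what 1035 alone did. Both rRNAs and all heavy-strand mRNAs but MT-ATP8 lay above both DMSO libraries in both 1035 libraries. None of these passed the test with all 8 libraries. The share of all genes that lay apart from DMSO in this way was not counted, here or below. Without the 2 libraries that stand apart, the log2 fold changes of these rRNAs and mRNAs were 0.18 to 0.64, with 1 library left in 1035. The light-strand genes tested were all positive with all 8 libraries and all negative without those 2, so their direction depended on the libraries used. With all 8 libraries, edgeR's quasi-likelihood test with Benjamini-Hochberg adjustment over 16320 genes called 2 of the 30 members in 1035 against DMSO, both higher, while 49% of all genes passed in either direction. They were the tRNA genes MT-TL2 (log2 fold change 1.77 ± 0.56 SE, adjusted p = 0.00806) and MT-TY (1.04 ± 0.43, adjusted p = 0.0444). Both are low, and each rests on library 2. MT-TL2 had 11 and 27 reads in 1035 and 7 and 6 in DMSO, and MT-TY had 13 and 41 reads in 1035 and 15 and 16 in DMSO. Without the 2 libraries that stand apart, their log2 fold changes were 0.90 (adjusted p = 0.285) and -0.10 (adjusted p = 0.892), so neither passed and MT-TY turned. Fitted on the 4 libraries of 1035 and DMSO alone, 8 of 25 members tested were higher and none lower, beside 25.9% of all genes higher, with library 2 of 1035 among the 4. They were MT-CO1 (adjusted p = 1.69e-11), MT-CO2 (5.38e-09), MT-CO3 (0.000393), MT-ND4L (0.0243), MT-ATP8 (0.0379) and the tRNAs MT-TS2 (0.000633), MT-TL2 (0.00282) and MT-TT (0.0156), all adjusted p-values from edgeR.

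All 12 heavy-strand mRNAs had a positive log2 fold change in 1035 against DMSO (0.23 to 1.07) with none past the test, and the median was 0.53, beside 0.01 over all genes. Without library 2 of 1035 and library 2 of Doxo, 9 of the 27 members still tested were higher in 1035 and none was lower, while 23.8% of all 16408 genes were higher and 23.7% lower. These were both rRNAs, 6 of 12 heavy-strand mRNAs and MT-TL1. In that fit 1035 and Doxo have 1 library each, which is assumed to vary like the other groups, and the choice of libraries was made knowing that they stand apart. Leaving them out also took their spread out of the error, so a pass in that fit is not independent evidence.

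MT-CO1, the catalytic core of complex IV, had 462.4 and 420.5 CPM in 1035, against 319.2 and 300.1 CPM in DMSO, and the groups did not overlap. Its log2 fold change was 0.51 ± 0.19 with all libraries (adjusted p = 0.0995) and 0.58 ± 0.05 without the 2 libraries (adjusted p = 3.81e-26). MT-CO2, another catalytic subunit, had 136.5 and 153.5 CPM in 1035, against 107.0 and 102.5 in DMSO, a log2 fold change of 0.47 ± 0.24 with all libraries (adjusted p = 0.188) and 0.38 ± 0.06 without the 2 (adjusted p = 4.45e-09). MT-CYB, the subunit of complex III, had 70.0 and 127.8 CPM in 1035, against 49.7 and 44.1 in DMSO, and its log2 fold change was 1.07 ± 0.49 (adjusted p = 0.152) with all libraries and 0.58 ± 0.08 (adjusted p = 6.55e-11) without the 2. MT-CO3, MT-ND3 and MT-ATP6 had log2 fold changes of 0.32, 0.34 and 0.30 without the 2 and passed there, and not with all 8 libraries.

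The mRNAs of the larger complex I subunits did not pass with all 8 libraries, without the 2, or in the 2 groups alone. MT-ND4 had 126.2 and 205.4 CPM in 1035, against 112.4 and 92.2 in DMSO, and MT-ND5 had 115.8 and 176.5, against 105.6 and 98.9. MT-ND1 had 39.5 and 63.4 CPM in 1035, against 34.2 and 24.7 in DMSO, and MT-ND2 had 38.4 and 71.2, against 32.5 and 29. Every 1035 library lay above both DMSO libraries for these 4 genes, with library 2 far above library 1. Their log2 fold changes were 0.51 to 0.82 with all libraries and 0.18 to 0.42 without the 2. MT-ND4L and MT-ATP8 passed in the 2 groups alone (0.48 and 0.52) and in neither other fit, and MT-ATP8 overlapped DMSO, with 9.5 and 15.5 CPM in 1035, against 9.56 and 7.74 in DMSO. In the authors' deposited table, MT-CO1 (log2 fold change 0.51, adjusted p = 5.12e-19), MT-CO2 (0.46, adjusted p = 1.83e-09), MT-RNR2 (0.80, adjusted p = 0.00838), MT-CYB (0.95, adjusted p = 0.0301), the heavy-strand tRNAs MT-TH (higher, adjusted p = 0.000491) and MT-TS2 (1.58, adjusted p = 0.00902) and the light-strand tRNA MT-TS1 (1.66, adjusted p = 0.00796) were below 0.05 in 1035 against DMSO, and MT-ND6 was not (0.90, adjusted p = 0.234).

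The rRNAs, counted as the depletion step left them, had the same direction. Whether depletion differed between libraries was not tested. MT-RNR2, the large-subunit rRNA of the mitochondrial ribosome, had 92.2 and 123.4 CPM in 1035, against 68.0 and 52.1 in DMSO, and MT-RNR1, the small-subunit rRNA, had 13.4 and 30.6, against 10.3 and 6.88. Neither overlapped DMSO. Their log2 fold changes were 0.84 ± 0.33 (adjusted p = 0.108) and 1.34 ± 0.70 (adjusted p = 0.201) with all libraries, and 0.62 ± 0.08 (adjusted p = 2.7e-11) and 0.64 ± 0.16 (adjusted p = 0.00017) without the 2.

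On the light strand, MT-ND6 had 25.5 and 188.2 CPM in 1035, against 30.2 and 29.6 in DMSO, with 1 library below and 1 above both controls. Its log2 fold change was 1.82 ± 1.17 with all libraries (adjusted p = 0.282) and -0.22 ± 0.11 without the 2 (adjusted p = 0.0876), so it turned. MT-TE, MT-TP and MT-TC turned as well, with 2.73, 2.91 and 1.01 against -0.33, -0.51 and -0.56, none past the test in either fit. MT-TL1 passed without the 2 libraries on 3 reads in library 1 of 1035 and none in DMSO, too few for a fold change to be read. Of the other tRNAs, MT-TH had 12 and 51 reads in 1035 and 5 and 5 in DMSO, and MT-TS2 had 13 and 39 reads in 1035 and 7 and 7 in DMSO. Neither passed with all 8 libraries or without the 2, and MT-TS2 passed in the 2 groups alone. MT-TR had 40 and 39 reads in 1035 and 37 and 30 in DMSO, and its coefficient of variation of 8.26% was the smallest among the members.

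The combination was next set against DMSO, a comparison in which neither group holds one of the 2 libraries. The rRNAs, as left by depletion, and 7 heavy-strand mRNAs were higher in 1035+Doxo and MT-ND6 was lower, as far as these 4 libraries alone set the error. With the spread pooled over all 8 libraries, edgeR called none of the 30 members there, none reached an unadjusted p of 0.05, and DESeq2 called 2, while edgeR called 49.2% of all genes. Fitted on the 4 libraries of these groups alone, edgeR called 11 of 23 members tested higher and 1 lower, while 28.2% of 15757 genes were higher and 27.9% lower. The higher ones were both rRNAs, MT-CO1, MT-CO2, MT-CO3, MT-CYB, MT-ND3, MT-ND4L, MT-ATP6 and the tRNAs MT-TT and MT-TS2, and the lower one was MT-ND6.

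MT-RNR1 had 17.5 and 17.1 CPM in 1035+Doxo, against 10.3 and 6.88 in DMSO (log2 fold change 1.01 ± 0.12, adjusted p = 4.21e-15). MT-RNR2 had 101.8 and 117.3 CPM, against 68.0 and 52.1 (0.87 ± 0.07, adjusted p = 8e-25). MT-CO1 had 450.1 and 419.4 CPM in 1035+Doxo, against 319.2 and 300.1 in DMSO (0.49 ± 0.04, adjusted p = 9.55e-29). None of these overlapped between the groups, and the share of all genes that did not overlap was not counted. MT-ND3, a small complex I subunit, had 26.2 and 22.9 CPM in 1035+Doxo, against 18.8 and 15.5 in DMSO (0.52 ± 0.10, adjusted p = 6.82e-07), MT-CYB had 73.2 and 55.5, against 49.7 and 44.1 (0.46 ± 0.07, adjusted p = 1.44e-10), and MT-CO2 had 138.4 and 133.1, against 107.0 and 102.5 (0.38 ± 0.05, adjusted p = 1.21e-11). MT-CO3 moved least among the genes called, with 728.9 and 682.6 CPM, against 672.5 and 617.5 (0.13 ± 0.04, adjusted p = 0.00456). The tRNA MT-TT had 48 and 24 reads in 1035+Doxo and 21 and 17 in DMSO (1.20 ± 0.31, adjusted p = 0.000264). MT-ND1, MT-ND2, MT-ND4, MT-ND5 and MT-ATP8 did not pass.

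MT-ND6 had 29.7 and 18.8 CPM in 1035+Doxo, against 30.2 and 29.6 in DMSO, with a log2 fold change of -0.29 ± 0.09 in the pair fit (adjusted p = 0.00534). Library 1 of 1035+Doxo lay between the DMSO libraries, so the groups overlap and the difference rests on library 2: with that library left out and the other 7 kept, the log2 fold change was -0.00. In the fit without the 2 libraries that stand apart, 12 members were higher (27.1% of all genes were) and 1 was lower (27.1% of all genes), again MT-ND6 (-0.29 ± 0.09, adjusted p = 0.00478).

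**Figure D4:**
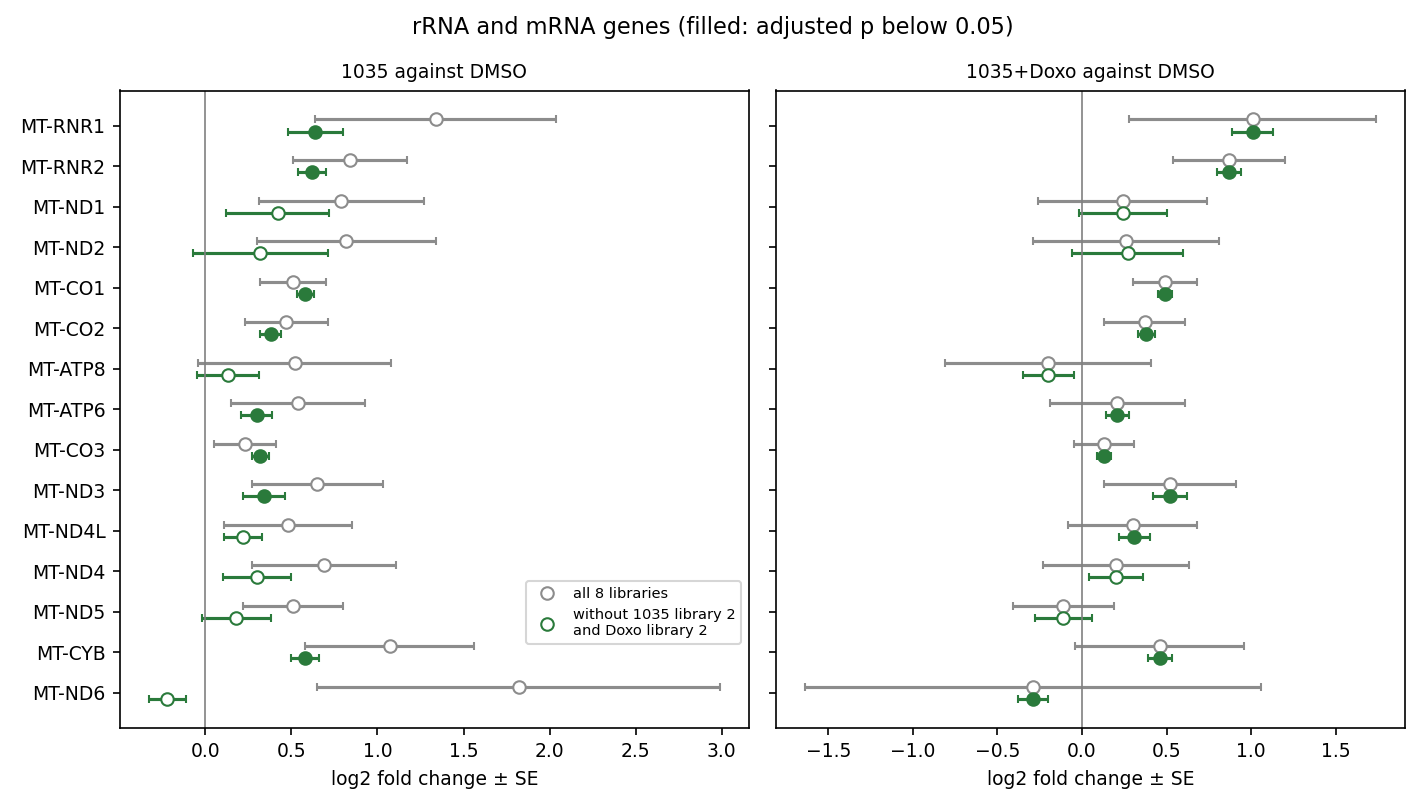
Log2 fold change with its SE (horizontal axis) of the 2 rRNA and 13 mRNA genes in 1035 against DMSO (left) and 1035+Doxo against DMSO (right), from edgeR. Grey points use all 8 libraries and green points leave out library 2 of 1035 and library 2 of Doxo, and filled points have an adjusted p below 0.05. MT-ND6 lies at 1.82 in grey and -0.22 in green on the left, and at -0.29 in both on the right.

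Doxorubicin alone changed little that could be told from the spread. In Doxo against DMSO, edgeR called none of the 30 members with all libraries, 2 had an unadjusted p under 0.05 and DESeq2 called none, while 1.33% of all genes passed. MT-CO1 alone passed without the 2 libraries (log2 fold change 0.28 ± 0.05, adjusted p = 3.36e-05), with 0.652% of all genes higher. MT-CO1 had 377.1 and 542.5 CPM in Doxo, against 319.2 and 300.1 in DMSO. MT-ND6 had 24.6 and 86.2 CPM in Doxo, against 30.2 and 29.6 in DMSO, on both sides of the controls as in 1035.

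Doxorubicin added after 1035 was compared with 1035 alone. In 1035+Doxo against 1035, edgeR called no member, 3 had an unadjusted p under 0.05 and DESeq2 called none, beside 0.496% of all genes. Without the 2 libraries edgeR again called none of 27, with 4 under an unadjusted p of 0.05, beside 0.634% of all genes, and the log2 fold changes of the heavy-strand mRNAs lay between -0.33 and 0.18. Fitted on these 2 groups alone, 4 members were lower (0.371% of all genes were), namely MT-ATP6 (log2 fold change -0.33), MT-ATP8 (-0.71), MT-TG (-0.96) and MT-TH (-1.47), with library 2 of 1035 among the 4 libraries used. MT-ATP8 had 8.97 and 6.03 CPM in 1035+Doxo, against 9.5 and 15.5 in 1035.

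In 1035+Doxo against Doxo, edgeR called no member with all libraries, 1 had an unadjusted p under 0.05 and DESeq2 called none, beside 43.8% of all genes. Without the 2 libraries, 8 of 27 were higher and none lower, with 21.9% of all genes higher. They were MT-RNR1 (log2 fold change 0.84), MT-RNR2 (0.61), MT-ATP6 (0.34), MT-CO2 (0.31), MT-CYB (0.31), MT-ND4L (0.31), MT-CO1 (0.21) and MT-TT (1.08). MT-ND6 was at -0.01 ± 0.11 in that fit, with 29.7 and 18.8 CPM in 1035+Doxo and 24.6 in the remaining Doxo library. Averaged over both doxorubicin states, 1035 gave no call with all libraries (1 unadjusted p under 0.05, 1 call by DESeq2, 58% of all genes called) and 13 higher without the 2 (29.1% of all genes higher), while MT-ND6 was at -0.12 ± 0.08 (adjusted p = 0.202). These comparisons share libraries and are not independent of each other. For the interaction of 1035 and Doxo, edgeR called no member with all libraries, 2 had an unadjusted p under 0.05 and DESeq2 called none, beside 0.0184% of all genes. MT-CO1 was called there without the 2 libraries, with an interaction of -0.37 ± 0.08 on the log2 scale, against -0.59 ± 0.27 with all 8 (0.0122% of all genes were called lower).

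Nuclear genes that serve mitochondrial RNA fell more often than they rose in 1035 against DMSO in each of the 5 lists used here, with all 8 libraries. For the maintenance and translation lists this did not hold without the 2 libraries that stand apart. Of 15 genes listed for mitochondrial transcription, 13 were tested in 1035 against DMSO with all 8 libraries, and 8 fell and none rose, while 24.8% of all genes fell and 24.2% rose. The median log2 fold change of the 13 was -0.33, beside 0.01 over all genes. TFAM, which packages mitochondrial DNA and starts transcription, fell by 0.37 ± 0.06 on the log2 scale (adjusted p = 1.21e-06), and TFB2M, which opens the promoter, fell by 0.33 ± 0.09 (adjusted p = 0.00394). The polymerase POLRMT was at -0.18 ± 0.08 and did not pass (adjusted p = 0.066). GABPA, a nuclear transcription factor that drives many mitochondrial protein genes, fell by 0.87 ± 0.08 (adjusted p = 1.38e-11), and the coactivator gene PPRC1 fell by 0.53 ± 0.07 (adjusted p = 2.42e-08). MTERF1, whose protein binds the terminator shown above, was not tested.

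For the lists that follow, the background is again 24.8% of all genes lower and 24.2% higher. Of 19 genes for RNA processing and modification, 9 fell and none rose. Of 13 for RNA stability and decay, 9 fell and 1 rose. The RNA-binding proteins SLIRP and GRSF1 fell by 0.40 ± 0.09 (adjusted p = 0.000328) and 0.21 ± 0.06 (adjusted p = 0.0047), and LRPPRC, the partner of SLIRP in keeping heavy-strand mRNAs stable, was at -0.03 ± 0.06 (adjusted p = 0.673). REXO2, an exonuclease for short RNA fragments, rose by 0.34 ± 0.09 (adjusted p = 0.00163). Of 12 genes for mitochondrial DNA maintenance, 5 fell, among them the nuclease-helicase DNA2 (-0.62 ± 0.07, adjusted p = 3.31e-09), and 2 rose, TK2 (0.38 ± 0.12, adjusted p = 0.00761) and the exonuclease MGME1 (0.43 ± 0.09, adjusted p = 8.97e-05). Of 9 translation factors 3 fell and 1 rose, namely OXA1L, which inserts mitochondrially made proteins into the inner membrane (0.36 ± 0.06, adjusted p = 9.17e-06). Without the 2 libraries that stand apart, which leaves 1 library in 1035, falling genes no longer outnumbered rising ones in the maintenance and translation lists. Their median log2 fold changes were -0.14 and -0.09 there, and -0.15 and -0.08 with all 8 libraries.

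In 1035+Doxo against Doxo the transcription list had 6 lower and none higher of 13, while 22% of all genes were lower and 21.8% higher. Of the processing list 6 of 19 were lower and 2 higher, of the stability and decay list 4 of 13 and 1, of the maintenance list 3 of 12 and 2, and of the translation factors 2 of 9 and 1. GABPA was at -0.76 ± 0.09 (adjusted p = 1.09e-09), the coactivator gene PPARGC1B at -0.69 ± 0.10 (adjusted p = 2.13e-07), TFAM at -0.29 ± 0.06 (adjusted p = 1e-04) and the rRNA methyltransferase gene MRM1 at -0.91 ± 0.12 (adjusted p = 3.55e-08). TK2, the mitochondrial thymidine kinase, was higher at 0.65 ± 0.12 (adjusted p = 2.84e-05), as were OXA1L (0.37) and MGME1 (0.46). In Doxo against DMSO none of the 13 tested transcription genes passed. Without the 2 libraries that stand apart, the transcription list again had 8 lower of 13 in 1035 against DMSO, where 23.7% of all genes were lower, and 7 of 13 in 1035+Doxo against Doxo, where 22.8% were.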

How the data were processed

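Per the file headers, the authors deposited 4 tables of raw counts of reads per gene, 1 for each comparison of 2 treatments, with FPKM values and the authors' log2 fold changes and adjusted p-values beside them. Per the submitters' processing notes the build was hg19 and the tools were Novoalign 2.08.01 and DESeq2 1.4.5, and for the read counter, its strand setting and its annotation nothing was stated. The FPKM values the authors deposited served to derive the gene lengths behind values per kilobase, and the log2 fold changes and p-values of the authors were printed only where named.

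Tables were merged on the Ensembl identifier (132880 counts occur in more than 1 table, each time equal), and 1241 genes without counts in all 8 libraries were left out. The counts were fitted with edgeR 4.0.16 (R 4.3.3), with TMM scaling, filterByExpr (288 genes removed, 16320 tested, all 30 members kept), 4 group means and the robust two-sided quasi-likelihood F-test, adjusted by Benjamini-Hochberg over all genes at an FDR of 0.05, and checked on simulated data. Strand, gene order and sequence came from GENCODE 29 on GRCh38, since no hg19 genome was used here, and no coordinates are given. Shares have exact (Clopper-Pearson) intervals.

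The series' design text calls both samples of each treatment independent. No label says that a replicate number pairs samples across treatments. Over genes, the difference of library 2 from library 1 had a correlation of -0.08 to 0.08 between treatments. Such a correlation cannot show whether samples shared a batch, and both libraries that stand apart are numbered 2. Alternatives were other scalings, no filter, DESeq2 1.42.0, a replicate block, the 2 groups alone, and leaving libraries out. All mRNA and rRNA members are named, tRNAs with a mean of at least 10 reads or a call, and of nuclear genes POLRMT, TFAM, TFB2M, LRPPRC, SLIRP, GRSF1 and the 3 with the smallest p in each direction in 1035 against DMSO and 1035+Doxo against Doxo. Members, lists and alternatives were chosen with earlier results of these data known.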

Additional observations from a re-analysis of the deposited data

Results flagged for a closer look

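MT-CO1 was flagged in the test of the interaction, in the fit without library 2 of 1035 and library 2 of Doxo. There 1035 and Doxo have 1 library each, so the spread within these groups is not in the error. The interaction was -0.37 ± 0.08 on the log2 scale (edgeR, adjusted p = 0.00267), the log2 fold change being 0.21 in 1035+Doxo against Doxo and 0.58 in 1035 against DMSO. It was the only member called in the interaction among 27 tested in that fit, in which 0.0122% of all genes were called lower. With all 8 libraries the interaction was -0.59 ± 0.27 and was not called (edgeR, adjusted p = 0.952), a larger value with a wider error. MT-CO1 had 377.1 and 542.5 CPM in the Doxo libraries, and a response that differs with doxorubicin is not established.

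The deposited FPKM values imply reads beyond the genes of their table, and these were most numerous in the 2 libraries that stand apart. In the table of 1035 against DMSO they came to 0.398% of the table's reads in library 2 of 1035, against 0.128% in library 1, 0.106% and 0.110% in DMSO. In the table of Doxo against DMSO they came to 0.301% in library 2 of Doxo, against 0.116% in library 1, 0.111% and 0.114% in DMSO. Which genes hold these reads was not analysed here. Each group has only 2 libraries, too few for an outlier test within a group, so the 2 libraries that stand apart are described without a test.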

How the results depend on the processing

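The count of mitochondrially encoded genes called in 1035 against DMSO was 2 with all libraries and 6 with DESeq2, 8 in the 2 groups alone, 5 with a replicate block and 9 without library 2 of 1035 and library 2 of Doxo together. Leaving those 2 libraries out gave 1 call in Doxo against DMSO, 8 in 1035+Doxo against Doxo, 13 in 1035+Doxo against DMSO, 1 in the interaction and 13 for 1035 averaged over both doxorubicin states, each 0 with all libraries. The 2 groups alone gave 4 in 1035+Doxo against 1035 and 12 in 1035+Doxo against DMSO. DESeq2 gave 2 in 1035+Doxo against DMSO and 1 for 1035 averaged, as did the replicate block (1) for the last. The shares of all genes called by DESeq2 and with the block are not given here, so their counts of members have no background. Every share of all genes printed beside a DESeq2 count is from edgeR. That block rests on numbers that no label gives as a pairing of the samples, and with it the interaction called 16 genes in all, against 3. The interaction called 6 genes without the 2 libraries, and the 2 groups alone called 134 genes in Doxo against DMSO (217 with all libraries) and 151 in 1035+Doxo against 1035 (81). The interaction and the averaged effect need all 4 groups and were not fitted on fewer. With 1 library left out at a time, the members called ranged from 0 to 9 in 1035 against DMSO, 0 to 6 in Doxo against DMSO, 0 to 3 in 1035+Doxo against 1035 and against Doxo, 0 to 4 in 1035+Doxo against DMSO and in the interaction, and 0 to 8 for 1035 averaged. All genes called ranged from 33 to 1180 in Doxo against DMSO, 30 to 143 in 1035+Doxo against 1035 and 1 to 239 in the interaction. In 1035 against DMSO, leaving out library 2 of 1035, alone or with library 2 of Doxo, turned MT-ND6 (-0.22), MT-TC (-0.56), MT-TY (-0.10), MT-TE (-0.33) and MT-TP (-0.51), whose highest log2 fold changes with 1 library left out were 2.66, 1.79, 1.72, 3.69 and 3.89. In 1035+Doxo against DMSO, MT-ND1 (-0.04 to 0.50) and MT-ND2 (-0.13 to 0.57) turned without library 1 of 1035+Doxo, and MT-ATP8 (-0.52 to 0.05) and MT-ND5 (-0.36 to 0.10) without library 2. The MT-ND6 ratio of 1035+Doxo over DMSO was 0.678 against all heavy-strand mRNAs and 0.872 against MT-ND5. The cause of these changes was not tested. Other scalings and no filter moved no count by over 1.5 times and turned no member followed. Low depth limits the tRNA genes most, with 45 to 841 reads on the 6 light-strand ones per library.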
